A study of Mus musculus with 6 samples.

Results

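The primitive and visceral endoderm genes described here are a set of 32 genes named by symbol, of 19938 genes that the arrays measured with a row of their own. For each gene the row with the highest mean over all 6 arrays was used, among rows that the platform annotation assigns to that gene alone. All 32 were found, and no row listed one of them together with another gene. The arrays compared E14 mouse embryonic stem cells in which Tdg was knocked down (3 arrays) with control E14 cells (3 arrays). Thymine DNA glycosylase, the product of Tdg, starts base excision repair at mismatched thymine and at certain cytosine bases oxidised by TET enzymes. Cells of both groups were kept on 0.1% gelatin in medium with 15% serum and 1000 units/ml of LIF, a cytokine that holds stem cells undifferentiated. The protocol, given alike for both groups, has lentiviral infection at a multiplicity of 10 and puromycin at 2 ug/ml from 48 hours after infection. The labels do not say which vector the controls received or how many hairpins were used, and whether the 3 arrays of each group stem from separate cultures is not stated. The p-values thus weigh differences against the spread between these arrays alone, and that spread may be technical.

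Primitive endoderm is the layer that the inner cell mass of the blastocyst forms beside the epiblast. FGF signalling through ERK favours it, and the transcription factors GATA6, GATA4, SOX17 and SOX7 install its programme while NANOG keeps epiblast identity. Its descendants are the parietal endoderm, which lays down a thick basement membrane, and the visceral endoderm, an absorptive epithelium that takes up maternal proteins through the receptors megalin and cubilin and secretes carriers of lipid, vitamin A and iron much as the liver does later. Stem cell cultures in serum and LIF can hold a few cells that express such genes, so in bulk RNA a lower signal from fewer cells of a type and one from less RNA per cell cannot be told apart.

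The knockdown was measured first. Tdg has no row of its own, and 4 rows list it with its pseudogene Tdg-ps2. Their mean was 8.24, 8.16 and 7.93 on the log2 scale in Tdg knockdown arrays, against 11.12, 11.20 and 11.10 in controls. The difference was -3.03 (SE 0.09, limma, adjusted p = 8.79e-05), which leaves 12.2% of the control signal, and an exact two-sided permutation test gave p = 0.1, the smallest that 3 arrays against 3 allow. Kdm2b appears as the knocked-down gene in the extraction protocol, whereas titles, genotype labels and design text give Tdg. The cells carried the stem cell markers: the mean over 14 such genes was 11.66 to 11.79 in knockdown arrays and 11.65 to 11.71 in controls, and 0 of the 14 passed the test (adjusted p under 0.05). Knockdown replicate 3 stood apart from the other 5 arrays on the first principal component, at 31.0 against -17.5 to 5.2. In that array the 1027 olfactory receptor genes, mostly silent in stem cells, lay a median of 0.18 above their mean over the 6 arrays. Differences of the 32 genes that turned sign or moved by over 1.5 times without that array are also given without it.

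No gene of the endoderm set passed the test across all genes: limma called 0 of 32 at an adjusted p under 0.05, where it called 0.792% of all 19938 genes (0.241% higher and 0.552% lower in knockdown cells). The lowest adjusted p of the set was 0.0673, that of Hnf4a. At an unadjusted p under 0.05 there were 7 lower genes and 1 higher gene of the 32, where 7.48% of all genes were lower and 5.03% higher. All 3 knockdown arrays lay below all 3 controls for 8 of the 32, against 11.0% of all genes, and above them for 3, against 7.98%. The shares among the 32 are 25.0% below and 9.38% above. The set was chosen with earlier results of these data known, so these shares are a description. The median log2 fold change, knockdown minus control, was 0.00 over the 32 genes and 0.02 over all genes, with 16 genes above 0 and 16 below. The values ran from -0.46 for Hnf4a to 0.22 for Apom. The even split differed by signal level. Of 25 genes with a mean level above the 95th percentile of the olfactory receptor genes, 15 were below 0 and 10 above (median -0.05). Of the 7 dimmer genes 6 were above 0 and 1 below (median 0.10). Of the 1027 olfactory receptor genes 802 were above 0 (median 0.08).

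With the replicate number of the titles as a block in the model, 2 of the 32 passed, both lower in knockdown cells: Hnf4a and Srgn. The block called 3.08% of all genes, 2.01% as lower. All 3 numbered pairs differed downward for 9 of the 32, against 21.2% of all genes, and upward for 7, against 22.0%. Hnf4a also passed, with Sparc, under a trended and robust variance prior (2.24% of all genes called), and alone when the dimmest 33.3% of rows were left out (2.37%). With array weights 7 of the 32 passed, 6 of them lower, where 8.19% of all genes passed in either direction. Without knockdown replicate 3, Hnf4a alone of the 32 passed, where 1.46% of all genes did. In that fit 10 of the 32 had both remaining knockdown arrays below every control (15.3% of all genes), 3 had both above (15.6%), 7 were lower at an unadjusted p under 0.05 (7.59%), and the median over the 32 was -0.07.

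**Figure D1:**
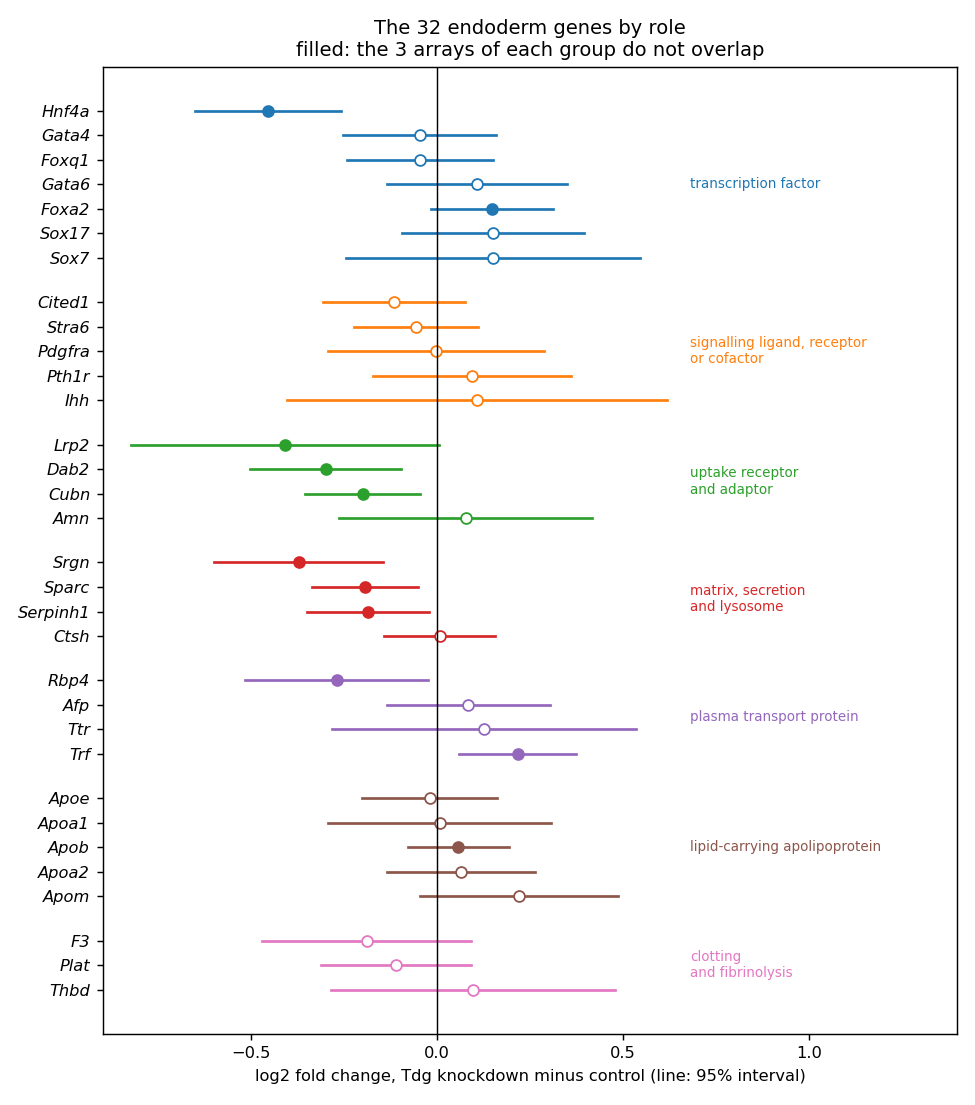
Log2 fold change (x axis, Tdg knockdown minus control, log2 units) with its 95% interval for each of the 32 endoderm genes (rows), coloured by role. Filled points are the 11 genes whose 3 knockdown arrays and 3 control arrays do not overlap. Hnf4a at -0.46, Lrp2 at -0.41 and Srgn at -0.37 lie farthest to the left, and Trf and Apom, at 0.22 each, farthest to the right.

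The 7 transcription factor genes did not move together: 4 fold changes were above 0 and 3 below, and only Hnf4a had an interval that left out 0 on the lower side. Hnf4a encodes a nuclear receptor that the visceral endoderm needs for its secretory programme and that later governs hepatocyte genes. Its signal was 8.44, 8.34 and 8.52 in knockdown arrays, against 8.76, 8.94 and 8.97 in controls. Every knockdown array thus lay below every control, by at least 0.24 on the log2 scale. The difference was -0.46 (SE 0.08, 95% interval -0.65 to -0.26), which is 72.9% of the control signal. It missed the threshold in the limma model without a block (adjusted p = 0.0673) and passed with the replicate number as a block (adjusted p = 0.0360) and without knockdown replicate 3 (-0.50, adjusted p = 0.0445). With another single array left out the adjusted p was 0.167 to 0.341, with the difference between -0.41 and -0.52.

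The factors that install the primitive endoderm programme showed no such separation. Gata6 signal was 7.52, 7.66 and 7.74 in knockdown arrays, against 7.61, 7.65 and 7.34 in controls, so the groups overlapped (0.11, 95% interval -0.14 to 0.35). Gata4 had 7.78, 7.65 and 7.93 in knockdown cells and 7.77, 7.82 and 7.91 in controls, a difference of -0.05 (95% interval -0.25 to 0.16). Both intervals leave out a change as large as that measured for Hnf4a. Sox17 gave 6.52, 6.36 and 6.74 against 6.37, 6.33 and 6.47 in controls, and Sox7 gave 6.85, 6.81 and 7.17 against 6.49, 6.78 and 7.11 in controls. Each of these 2 genes differed by 0.15, and in each the highest value of both groups was that of the array numbered 3. Without knockdown replicate 3 the differences were 0.05 for Sox17, 0.04 for Sox7, 0.06 for Gata6 and -0.12 for Gata4. The mean Sox17 level of 6.465 lay within the range of the olfactory receptor genes, whose 95th percentile was 6.63. That of Sox7, 6.87, was not far above it. Whether rows this dim could show a fall is not known.

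Foxa2, a forkhead factor of visceral and definitive endoderm, was higher in each knockdown array (7.44, 7.54 and 7.62) than in any control (7.40, 7.34 and 7.42). The gap between the groups was 0.02, and the difference of 0.15 did not pass (95% interval -0.02 to 0.31, adjusted p = 0.460). Foxq1, another forkhead factor, differed by -0.05, or -0.11 without knockdown replicate 3.

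The RefSeq promoter windows of assembly GRCm38.p6 cover 250 bases before to 50 after a gene's annotated start, and 22 of the 32 genes had 1 or more. Those of Hnf4a are shown because it had the lowest p of the set. Capitals mark CG dinucleotides, the sites at which cytosine methylation and its oxidation mostly occur in mammals. Hnf4a has 2 windows on the plus strand, at chr2:163506607-163506906 and chr2:163546905-163547204.
Hnf4a window 1: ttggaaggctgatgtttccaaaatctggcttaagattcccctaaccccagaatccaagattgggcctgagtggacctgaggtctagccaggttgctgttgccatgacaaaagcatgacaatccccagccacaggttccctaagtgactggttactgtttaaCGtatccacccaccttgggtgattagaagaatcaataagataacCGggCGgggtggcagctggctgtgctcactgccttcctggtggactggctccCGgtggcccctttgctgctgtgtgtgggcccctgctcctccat
Hnf4a window 2: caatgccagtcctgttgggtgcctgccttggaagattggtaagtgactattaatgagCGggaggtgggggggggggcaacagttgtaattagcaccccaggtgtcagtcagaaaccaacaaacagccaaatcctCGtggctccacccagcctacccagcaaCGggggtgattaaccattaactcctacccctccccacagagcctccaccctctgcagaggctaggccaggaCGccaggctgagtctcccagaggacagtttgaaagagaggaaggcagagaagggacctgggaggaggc
Each Hnf4a window holds 4 CG dinucleotides, and 68.6% of all 32851 windows hold as many or more. The letters AGATAA, a form of the GATA motif searched on both strands, occur in window 1 from 52 bases before the start on the plus strand. The same letters are found in 11.2% of all windows and in 4 of 38 windows of the endoderm genes (Hnf4a, Dab2, Foxa2 and Stra6). The letters CAAAGTCCA, a form of the HNF4 motif, were found in 0 of the 38 windows and in 0.475% of all windows. TGTTTAC, a FOX form, was in 7.89% of the 38 and 3.65% of all windows. AACAAT, a SOX form, was in 0% and 10.7%, and the TATA box letters TATAAA in 26.3% and 13.6%. None of these differences in share was tested. A match says only that these letters are present.

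Megalin and cubilin are the large endocytic receptors of the visceral endoderm, amnionless carries cubilin to the cell surface, and DAB2 links megalin to clathrin. Lrp2, Cubn and Dab2 had every knockdown array below every control, as did 11.0% of all genes, while Amn did not. Lrp2, which encodes megalin, had 9.80, 9.79 and 9.24 in knockdown arrays, against 10.27, 9.91 and 9.88 in controls. Knockdown replicate 3 and control replicate 1 lay far from the rest of their groups. The Lrp2 difference was -0.41 (SE 0.18, adjusted p = 0.407), with a 95% interval of -0.82 to 0.00, and it was -0.23 without knockdown replicate 3.

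Cubn, the cubilin gene, had 6.31, 6.44 and 6.38 in knockdown cells against 6.62, 6.59 and 6.52 in controls. Its groups were 0.08 apart at their nearest values, and the difference was -0.20 (SE 0.07, adjusted p = 0.263). The mean Cubn level of 6.48 lay within the range of the olfactory receptor genes, whose 95th percentile was 6.63. Dab2 had 8.25, 8.28 and 8.00 in knockdown arrays and 8.48, 8.48 and 8.47 in controls. The control arrays were nearly equal while knockdown replicate 3 lay lowest, and the difference was -0.30 (SE 0.09, adjusted p = 0.196). A second, dimmer row of Dab2 went the other way, with 4.22, 4.15 and 4.44 in knockdown arrays and 3.78, 4.13 and 4.21 in controls (0.23, SE 0.14). The values of that row lay within the olfactory receptor range and were highest in knockdown replicate 3. The mean of both Dab2 rows differed by -0.04. Amn, which encodes amnionless, had 7.65, 7.72 and 8.12 in knockdown cells, against 7.55, 7.83 and 7.88 in controls. These groups overlapped, and the difference of 0.08 had an interval of -0.26 to 0.42. Amn turned to -0.07 without knockdown replicate 3. With the replicate block none of the 4 passed (adjusted p 0.0858 to 0.597).

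The windows of the 3 uptake genes that separated are shown to set their CG content side by side. The Lrp2 window lies at chr2:69585980-69586279 on the minus strand, the Cubn window at chr2:13491827-13492126 on the minus strand, and the Dab2 windows at chr15:6299539-6299838 and chr15:6386498-6386797 on the plus strand. Capitals again mark CG.
Lrp2: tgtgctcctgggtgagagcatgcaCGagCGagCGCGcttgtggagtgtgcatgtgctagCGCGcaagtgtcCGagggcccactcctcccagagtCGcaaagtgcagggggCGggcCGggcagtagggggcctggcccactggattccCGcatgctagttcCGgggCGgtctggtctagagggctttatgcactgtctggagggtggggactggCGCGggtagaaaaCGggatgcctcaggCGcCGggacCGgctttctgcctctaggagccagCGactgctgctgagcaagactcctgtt
Cubn: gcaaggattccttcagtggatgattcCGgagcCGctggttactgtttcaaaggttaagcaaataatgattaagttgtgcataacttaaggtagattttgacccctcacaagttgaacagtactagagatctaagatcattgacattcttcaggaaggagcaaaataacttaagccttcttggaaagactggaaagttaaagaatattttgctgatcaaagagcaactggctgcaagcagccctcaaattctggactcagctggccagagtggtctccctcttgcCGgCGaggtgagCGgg
Dab2 window 1: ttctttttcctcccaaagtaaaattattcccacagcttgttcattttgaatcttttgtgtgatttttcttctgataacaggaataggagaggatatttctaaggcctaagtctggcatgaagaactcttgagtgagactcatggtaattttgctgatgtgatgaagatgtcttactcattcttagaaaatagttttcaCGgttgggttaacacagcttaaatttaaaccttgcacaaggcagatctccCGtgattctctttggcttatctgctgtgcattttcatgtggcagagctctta
Dab2 window 2: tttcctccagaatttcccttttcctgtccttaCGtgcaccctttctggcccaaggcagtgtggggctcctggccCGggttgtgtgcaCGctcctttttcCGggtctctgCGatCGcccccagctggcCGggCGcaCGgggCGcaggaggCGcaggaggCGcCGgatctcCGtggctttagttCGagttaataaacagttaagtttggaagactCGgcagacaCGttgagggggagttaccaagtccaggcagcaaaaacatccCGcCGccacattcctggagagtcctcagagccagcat
The CG counts differ widely: 20 for Lrp2, 5 for Cubn, and 2 and 19 for the Dab2 windows. As many or more are held by 26.5%, 62.0%, 85.9% and 28.1% of all windows in that order. Over the 38 windows of the endoderm genes the median was 9.5 CG, from 1 in an Apoa2 window to 40 in an Rbp4 window, against a median of 7 over all windows. The genes with groups that do not overlap thus include windows both poor and rich in CG. AGATAA occurs in Dab2 window 1 on the minus strand and in neither the Lrp2 nor the Cubn window.

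**Figure D2:**
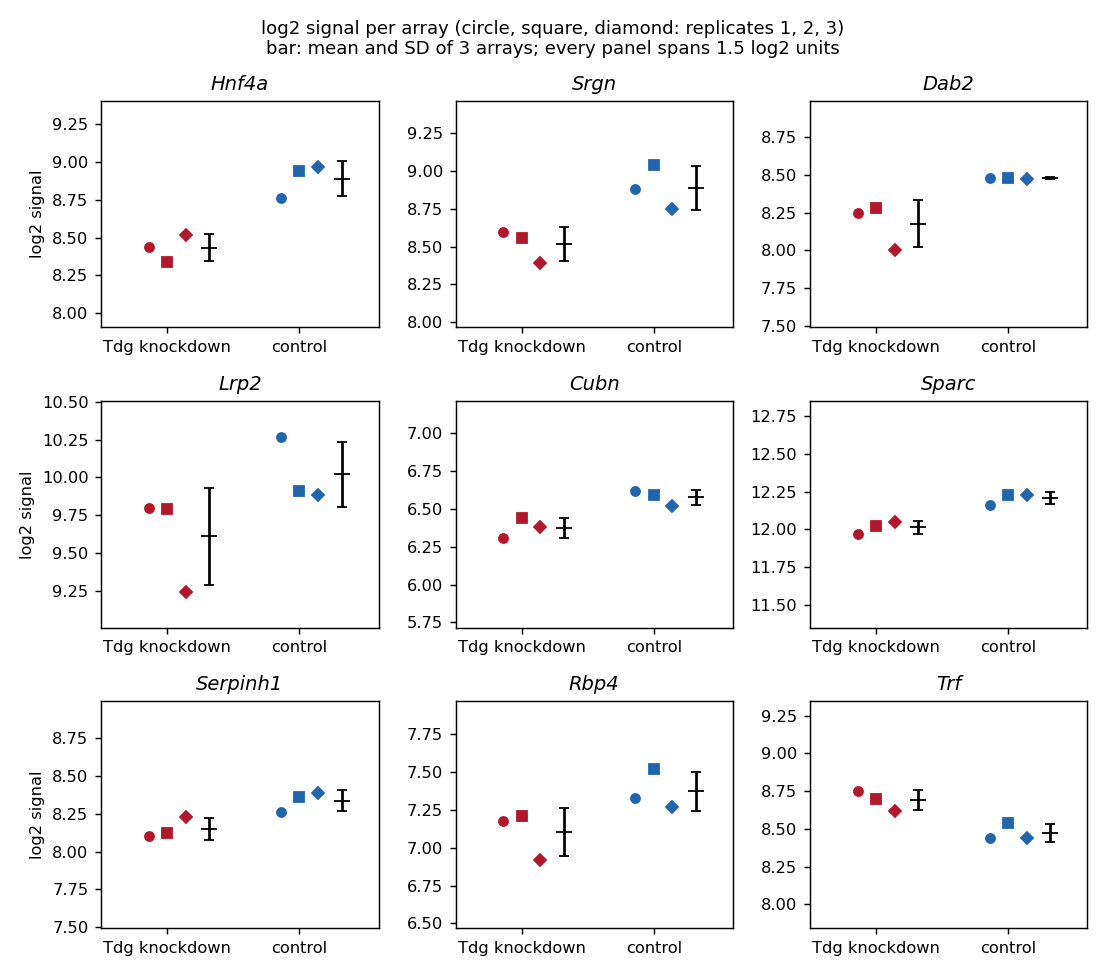
Log2 signal (y axis) of 9 endoderm genes in each of the 3 Tdg knockdown arrays (red, left) and 3 control arrays (blue, right), with the mean and SD beside the points. Circles, squares and diamonds are replicates 1, 2 and 3, and each panel spans 1.5 log2 units. Hnf4a shows the widest gap between the groups, Lrp2 the widest spread within them, and Trf is the gene with knockdown above control.

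Srgn encodes serglycin, a proteoglycan of secretory granules that parietal endoderm also makes. Its signal was 8.60, 8.56 and 8.39 in knockdown arrays against 8.88, 9.04 and 8.75 in controls. Every knockdown array was lower than every control, by at least 0.15. The difference of -0.37 (SE 0.10, 95% interval -0.60 to -0.15) missed the threshold without a block (adjusted p = 0.155) and passed with it (adjusted p = 0.0393), and the 3 numbered pairs differed by -0.28, -0.48 and -0.36.

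Sparc, a matricellular glycoprotein that is abundant in parietal endoderm, was bright on all arrays: 11.97, 12.02 and 12.05 in knockdown cells against 12.16, 12.23 and 12.23 in controls. The values within each group lay close together and the groups did not overlap (-0.19, SE 0.06, adjusted p = 0.237). Serpinh1, the collagen chaperone HSP47, had 8.10, 8.12 and 8.23 in knockdown arrays against 8.26, 8.36 and 8.39 in controls, with a gap of 0.03 between the groups and a difference of -0.19 (SE 0.07, adjusted p = 0.329). Ctsh, a lysosomal cysteine protease gene, gave 0.01 (0.04 without knockdown replicate 3), with overlapping groups. Of these 4 genes of matrix, secretion and the lysosome, 3 separated downward, as did 11.0% of all genes, and Srgn alone passed with the block, which called 2.01% of all genes as lower.

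The 4 plasma transport proteins split in direction. Rbp4 encodes the retinol-binding protein of plasma, and its signal was 7.18, 7.21 and 6.92 in knockdown arrays against 7.33, 7.52 and 7.27 in controls. The groups were 0.06 apart, and the difference was -0.27 (SE 0.10, adjusted p = 0.354), or -0.18 without knockdown replicate 3. Trf, the gene of the iron carrier transferrin, went the other way, with 8.75, 8.70 and 8.62 in knockdown cells against 8.44, 8.54 and 8.44 in controls. It was the only 1 of the 32 that was higher at an unadjusted p under 0.05 (0.22, SE 0.07, adjusted p = 0.231), and the replicate block did not change that side of the threshold (adjusted p = 0.110). Ttr, which carries thyroid hormone and binds RBP4, differed by 0.13 with an interval of -0.28 to 0.54. Afp, the fetal albumin-like protein of visceral endoderm and liver, differed by 0.08 (-0.14 to 0.30). Ttr turned to -0.05 and Afp was 0.02 without knockdown replicate 3. The table gives no signal over background, but Ttr and Afp had mean levels of 5.16 and 6.26, within the range of the olfactory receptor genes, whose 95th percentile was 6.63.

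The 5 genes of lipid-carrying proteins ran from -0.02 to 0.22, and none was lower at an unadjusted p under 0.05. Apoe, a lipid carrier that many cell types make, was bright, at 11.95, 12.17 and 12.11 in knockdown arrays and 12.09, 12.15 and 12.05 in controls, with a difference of -0.02 (95% interval -0.20 to 0.16). Apoa1 and Apoa2, the main proteins of high-density lipoprotein, differed by 0.01 and 0.06. Without knockdown replicate 3 Apoa1 turned to -0.08, Apoa2 was 0.02 and Apoe -0.04. Apob, the structural protein of the larger lipoproteins, differed by 0.06 (SE 0.06), although its knockdown values of 6.50, 6.48 and 6.51 all lay above the controls at 6.40, 6.47 and 6.45. Apom, which carries sphingosine-1-phosphate, had the largest positive value of the set, with 5.60, 5.39 and 5.82 in knockdown cells against 5.42, 5.29 and 5.44 in controls. The Apom groups overlapped, the difference was 0.22 (SE 0.11, adjusted p = 0.507), and it was 0.11 without knockdown replicate 3. Apob and Apom also lay within the olfactory receptor range.

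Pdgfra, a receptor tyrosine kinase whose surface level marks primitive endoderm cells, did not differ beyond its spread: 6.66, 6.55 and 6.98 in knockdown arrays against 6.71, 6.62 and 6.87 in controls, a difference of 0.00 (95% interval -0.29 to 0.29). In both groups the array numbered 3 was highest, and without knockdown replicate 3 the Pdgfra difference was -0.13. The mean Pdgfra level of 6.73 was only just above the olfactory receptor 95th percentile of 6.63, so a fall might not show. The other 4 signalling genes were Ihh, a hedgehog ligand of visceral endoderm (0.11), Pth1r, a parathyroid hormone receptor whose level rises as parietal endoderm forms (0.09), Stra6, the cell-surface receptor for RBP4 (-0.06), and Cited1, a transcriptional cofactor (-0.12). None of the 5 had groups that separated. Ihh had the widest interval of the set, -0.40 to 0.62, with 7.88, 7.87 and 8.45 in knockdown arrays and 7.60, 7.97 and 8.31 in controls. Without knockdown replicate 3 Ihh turned to -0.09, Pth1r was 0.02 and Stra6 -0.10.

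Parietal endoderm is known to make regulators of clotting at the border with maternal blood. F3, the tissue factor gene, had 8.45, 8.61 and 8.14 in knockdown arrays against 8.65, 8.58 and 8.54 in controls (-0.19, SE 0.12, adjusted p = 0.609), and -0.06 without knockdown replicate 3. Plat, which encodes tissue plasminogen activator, differed by -0.11 and Thbd, the thrombomodulin gene, by 0.10. All 3 had overlapping groups. Plat was -0.18 without knockdown replicate 3 and -0.04 without knockdown replicate 1, and Thbd turned to -0.06 without knockdown replicate 3.

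Across the arrays the 32 genes did not vary as 1 block. Knockdown replicate 3 gave the highest value of its group for 23 of the 32 genes, while it did so for 42.4% of all genes, and it gave the lowest for 7. Among controls replicate 3 was highest for 17 of the 32, against 43.1% of all genes. The median deviation of the 32 genes from their mean over the 6 arrays was -0.05, -0.06 and 0.10 in knockdown replicates 1, 2 and 3, against -0.03, 0.02 and 0.05 in control replicates 1, 2 and 3. For the 7 genes with mean levels within the olfactory receptor range (Sox17, Cubn, Afp, Ttr, Apob, Apom and Thbd) it was 0.03, -0.06 and 0.28 in knockdown cells, against -0.10, -0.04 and 0.04 in controls. By their medians dim rows, the olfactory receptor genes among them, thus lay high in knockdown replicate 3. Cubn did not, at 6.38 there against a mean of 6.48 over the 6 arrays. The part of the high dim rows in the small positive values of the set was not tested. Among the lower genes, Lrp2, Srgn, Dab2, Rbp4 and F3 had the lowest value of their group in knockdown replicate 3. Hnf4a, Sparc and Serpinh1 were highest there among knockdown arrays and still below every control.

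**Figure D3:**
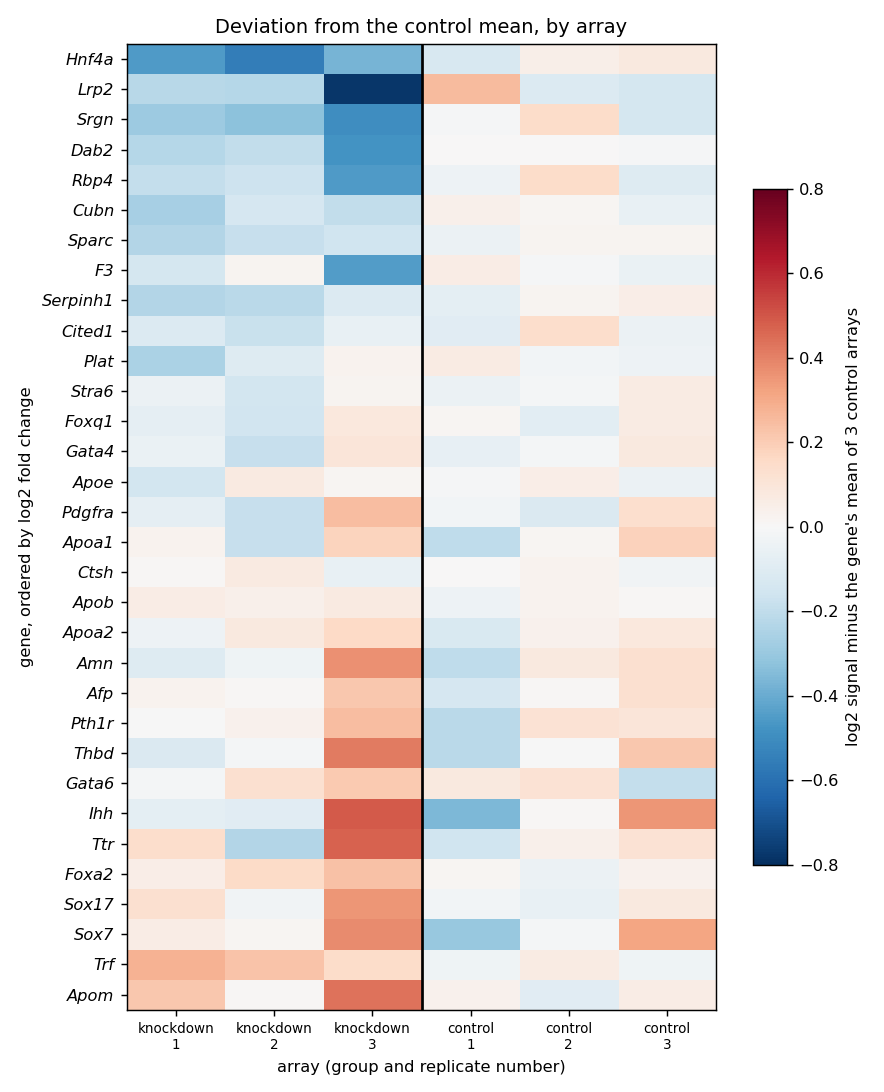
Log2 signal of each of the 32 endoderm genes (rows, ordered by fold change) in each array (columns), minus that gene's mean over the 3 control arrays. Blue is below and red above the control mean. The top rows, from Hnf4a to Sparc, are blue in all 3 knockdown arrays, while much of the red in the lower rows lies in knockdown replicate 3.

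Related genes were counted from lists that, like the set, were chosen with earlier results known. Of 8 basement membrane genes of the kind parietal endoderm makes in quantity, 0 passed, 7 were below 0 and 4 had every knockdown array below every control, with a median of -0.10. Over all genes 0.552% were called lower, 43.5% were below 0 and 11.0% had every knockdown array below every control. Lamb1, a laminin chain, had 10.12, 10.21 and 10.05 in knockdown arrays against 10.52, 10.44 and 10.45 in controls (-0.34, adjusted p = 0.0843, or 0.0474 with the replicate block). Nid1, the linker protein nidogen, differed by -0.27 (adjusted p = 0.185). The 15 measured genes of a further extraembryonic endoderm list had a median of 0.00, and 1 passed. Krt19, a simple epithelial keratin also expressed in trophoblast, fell by 0.83 on the log2 scale, with 8.63, 8.83 and 8.83 in knockdown arrays against 9.40, 9.70 and 9.67 in controls (SE 0.10, adjusted p = 0.0288, blocked 0.00867). Its call was lost with all rows tested (adjusted p = 0.105) and with any single array but knockdown replicate 3 left out (adjusted p 0.0631 to 0.192, difference -0.76 to -0.92). With the block 3 genes of that list passed, all lower, where 2.01% of all genes were called lower. The others were Krt8 (-0.38, adjusted p = 0.150, blocked 0.0329) and Krt18 (-0.32, adjusted p = 0.0815, blocked 0.0445), named after their values were seen. Of the 15 genes, 8 were above 0 and 7 below. Spink1, also named after its values were seen, had every knockdown array above every control (0.55, adjusted p = 0.246, blocked 0.0542), as did 7.98% of all genes.

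Of 12 measured genes of FGF and ERK signalling 0 passed, with a median of -0.02. Etv4, an ERK-induced transcription factor, differed by 0.39 (adjusted p = 0.101, blocked 0.0305), while the receptor gene Fgfr1 differed by -0.17 (adjusted p = 0.350). Of 12 genes of definitive and anterior visceral endoderm 0 passed, with a median of 0.07 and 10 above 0, where 11053 of the 19938 genes were above 0. Otx2, a homeobox gene of anterior visceral endoderm and epiblast, differed by -0.31 (adjusted p = 0.136) and Hhex, a homeobox gene of the same tissue, by 0.19 (adjusted p = 0.367). Among the stem cell markers, Nr0b1 differed by 0.38 (adjusted p = 0.0520, blocked 0.0306) and Gdf3 by 0.10 (adjusted p = 0.628), and the median over the 14 was 0.03.

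Markers of other cell types were counted in the same way, and none passed. For 9 trophoblast genes the mean level was 7.18 to 7.29 in knockdown arrays and 7.13 to 7.28 in controls, with Krt7 at -0.19 (adjusted p = 0.225) and Hand1 at 0.32 (adjusted p = 0.311). For 9 fibroblast genes it was 6.86 to 7.20 against 6.89 to 7.09 in controls, with Pdgfrb at -0.26 (adjusted p = 0.143) and Lum at 0.12 (adjusted p = 0.743). The 5 measured hepatocyte genes gave 5.84 to 5.95 against 5.80 to 5.91 in controls. Cps1 differed by 0.23 (adjusted p = 0.260) and Ahsg by -0.22 (adjusted p = 0.398). Alb, the albumin gene, had a mean level of 5.44 in knockdown and 5.36 in control cells, inside the olfactory receptor range. Tat and Cyp3a11 of the hepatocyte list also lay inside it. So did Elf5, Gata3 and Tpbpa of the trophoblast list and Dcn, Lum and Postn of the fibroblast list. The part of these cell types in the lower values was not tested.

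**Figure D4:**
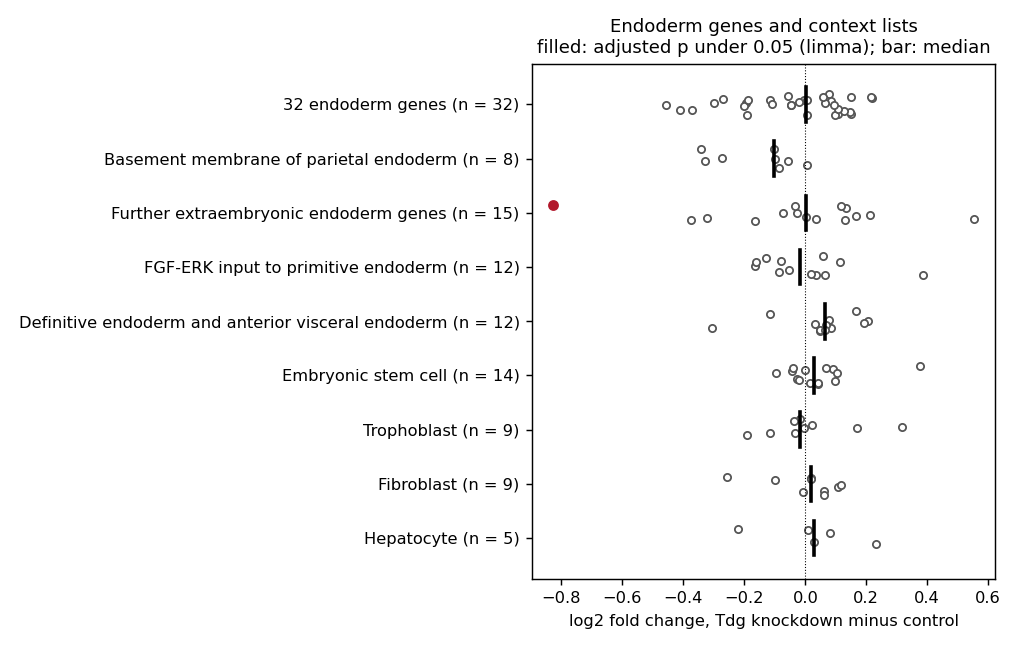
Log2 fold change (x axis, Tdg knockdown minus control) of each gene (points) in the endoderm set and in 8 related or control lists (rows), with the median as a bar. Krt19 at -0.83 is the only filled point, that is, the only gene of these lists with an adjusted p under 0.05. The basement membrane list has the lowest median, -0.10.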

How the data were processed

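The authors deposited 1 log2 signal for each probe set on each array, and the submitters' processing notes name Affymetrix Expression Console. Its version, the summarisation method and any normalization across arrays: not given in the sources used here. That the scale is log2 was read from the values, which span 2.26 to 14.03 with array medians of 7.41 to 7.48. The number of arrays limits the precision.

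The platform annotation gives 1 gene for 21789 of 35557 rows, several for 1621 and none for 12147. Symbols were updated by gene identifier from RefSeq for 21698 rows, and 19938 named genes remained. Knockdown minus control was fitted in R 4.3.3 by the two-sided moderated test of limma 3.58.1 (functions lmFit and eBayes), adjusting by Benjamini-Hochberg over all named genes at a threshold of 0.05. The 4 rows shared by Tdg and its pseudogene were averaged. The 95% intervals come from the same model.

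The genes, lists and tests were chosen with earlier results of these data known. Each of the 32 genes is reported. Per-array values are given for the lineage factors, for genes at an unadjusted p under 0.05 and for some chosen after their values were seen (Lrp2, Amn, Apoe, Apob, Apom, Ihh and F3). Of each related list the genes past the threshold are named, or else the 2 with the smallest p.

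No label says what equal replicate numbers share. Same-numbered arrays deviated together from their group means, with correlations across genes of 0.61, 0.23 and 0.70, above the criterion of 0.1 in each pair. Of the differently numbered pairs, knockdown replicate 2 with control replicate 1 gave 0.44, and the others ran from -0.64 to -0.05. For knockdown replicate 2 the closest control was thus not the same-numbered one. Blocked values are given where they change a call, and they hold only if the numbers do pair the samples. Other settings were quantile normalization, median centring, a filter on the dimmest 33.3% of rows, a robust prior with trend, weighted arrays, averaging a gene's rows, adjusting over every row, and dropping each array in turn. Dropping both arrays numbered 3, with and without the block, was added after seeing the data. Array weights were estimated gene by gene, since the default estimate did not converge.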

Additional observations from a re-analysis of the deposited data

How the results depend on the processing

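The count of endoderm genes called, 0 of 32 in the limma model (7 lower and 1 higher at an unadjusted p under 0.05), was 2 with the replicate block (Hnf4a and Srgn), 1 without the dimmest 33.3% of rows (Hnf4a, with 28 of the 32 left in), 2 with a trended and robust prior (Hnf4a and Sparc) and 7 with array weights, and 0 to 1 with 1 array left out. It was 0 in the remaining settings. The count over all genes, 158, was 614, 351, 446 and 1633 in the same 4 settings, 17 with all rows tested and 0 to 291 with 1 array left out. Without both arrays numbered 3 and with the replicate block, a fit with few residual degrees of freedom, it was 0 and Tdg differed by -2.96 (adjusted p = 0.280). Over the 32 genes the median was -0.073 to 0.039 with 1 array left out. Hnf4a lay between -0.52 and -0.41 in all 16 alternatives, with adjusted p from 0.00441 to 0.341, and passed in 5 of them. The replicate block changed no other call of the 32.

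Signs turned for genes close to 0. With array weights Amn was -0.097, Apoa1 -0.027, Apoa2 -0.018, Gata6 -0.028, Ihh -0.050, Pth1r -0.039 and Thbd -0.051. After quantile normalization Apoa1 was -0.0033 and Ctsh -0.010. Without both arrays numbered 3, with or without the block, Amn was -0.0050 and Gata6 -0.040. With 1 array left out Amn ran from -0.068 to 0.17, Apoa1 from -0.095 to 0.10, Apoe from -0.067 to 0.043, Ctsh from -0.025 to 0.040, Foxq1 from -0.11 to 0.0067, Gata4 from -0.12 to 0.022, Ihh from -0.085 to 0.28, Pdgfra from -0.13 to 0.087, Pth1r from -0.013 to 0.15, Sox7 from -0.0017 to 0.31, Thbd from -0.063 to 0.21 and Ttr from -0.047 to 0.31. None of these genes passed in any setting, and the causes were not tested. Signal over background is not given in the table, so what the dim rows could show is not known.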
